A study of Mus musculus with 14 samples.

Results

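Liver tumours from mice that had received temozolomide (TMZ) were compared with normal liver. Of 14 libraries in the study, 5 came from tumours whose treatment label names TMZ, and 4 came from normal liver. All mice were C3HeB/FeJ males aged 18 months, a strain whose males develop liver tumours without a carcinogen. Mice were checked for tumours at 10 months and then injected intraperitoneally on 5 days of each 28-day cycle, over 6 cycles. Among them Grow 2, Grow 3 and Grow 4 came from mice given suberoylanilide hydroxamic acid (SAHA, vorinostat) at 85 mg/kg with TMZ at 22 mg/kg. Regress 1 and Regress 3 came from mice given TMZ alone at 31 mg/kg. Normal 1 to Normal 4 were livers of mice given phosphate citrate buffer. The other 5 tumours are Grow 1, Grow 5 and Regress 4 with DMSO, Grow 6 with SAHA at 100 mg/kg, and Regress 2 with phosphate citrate buffer. The labels do not define growing or regressing. Every SAHA + TMZ tumour is titled Grow and both TMZ-alone tumours are titled Regress, so drug arm and tumour course cannot be told apart. There is no normal liver with TMZ, so differences from normal liver hold tumour and drug together. The labels do not say which libraries came from separate animals, so p-values measure only the spread between these samples.

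TMZ is a methylating drug. Its toxic lesion, O6-methylguanine, is removed by the repair protein Mgmt, and where it stays, mismatch repair turns it into strand breaks at the next rounds of replication. The breaks activate p53, which induces the cell cycle inhibitor Cdkn1a (p21) and death genes. SAHA inhibits histone deacetylases. Mouse hepatocellular tumours commonly carry activating changes in the Ras and ERK kinase pathway, whose output includes cyclin D1 (Ccnd1) and the ERK phosphatase Dusp6, or in beta-catenin, which drives the genes of hepatocytes around the central vein.

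Libraries of the TMZ tumours and normal livers held 4706838 to 7473829 counts each. Several of them stand apart. Grow 3 and Grow 4 were the most alike of all pairs of libraries, with a chi-square of 19.3 per degree of freedom and a correlation of 0.979 over log2 values. The value exceeds counting noise, which pieces of a single tumour could exceed too, so it does not show whether they are separate tumours. The pair has different sample codes in the labels. Grow 3 and Grow 4 were kept as 2 samples as titled, and counts with the pair summed are given beside the results. Regress 1 was the TMZ tumour closest to normal liver, with a mean correlation of 0.899 with the 4 normals against 0.827 to 0.867 for the other TMZ tumours and 0.892 to 0.932 among the normals. Normal 2 carried female-biased liver transcripts that the other normals nearly lacked. Its A1bg was at 398 CPM against 0 to 0.291 in the other 13 libraries, and Sult3a1 was at 19.4 CPM against at most 0.394. Male-biased Cyp4a12a was at 5.08 CPM in it, against 238, 605 and 338 CPM in Normal 1, Normal 3 and Normal 4. Its Y-linked Ddx3y, at 86.0 CPM, and its Xist, at 0.350 CPM, were like those of the other libraries, 52.2 to 77.8 CPM and 0 to 1.06 CPM. Normal 4 and Regress 2 share 1 sample code in the labels, and whether they came from the same mouse was not tested. CPM values here are counts scaled to a common TMM-adjusted library size, and fold changes come from one model over all 14 libraries.

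Across the 5 TMZ tumours 3 genes rose against normal liver and none fell, 0.0244% of 12300 features tested with edgeR's quasi-likelihood test at a Benjamini-Hochberg adjusted p under 0.05. They were Ccnd1, the cyclin that carries cells out of G1, Dusp6, which dephosphorylates ERK and is induced by it, and Mpzl1, a membrane glycoprotein that recruits the phosphatase Shp2. Ccnd1 was at 4.92, 3.33, 4.18 and 5.53 CPM in Normal 1 to Normal 4 and at 40.6, 37.9 and 33.5 CPM in Grow 2, Grow 3 and Grow 4, with 11.4 CPM in Regress 1 and 21.6 CPM in Regress 3. Its mean was 29.0 ± 12.2 CPM (SD, n = 5) against 4.49 ± 0.949 CPM (SD, n = 4), a log2 fold change of 2.69 ± 0.34 (SE) with an edgeR adjusted p of 0.0164. Every TMZ tumour lay above every normal liver, and the SAHA + TMZ tumours lay above the TMZ-alone ones. The tumours without TMZ had 38.5 to 52.4 CPM. Dusp6 was at 22.3, 20.1, 18.1 and 18.3 CPM in the normals, at 83.1, 93.0 and 99.3 CPM with SAHA + TMZ, and at 37.4 and 74.2 CPM in Regress 1 and Regress 3. It rose by 1.97 ± 0.29 on the log2 scale (edgeR adjusted p = 0.0258). Regress 1 was the lowest TMZ tumour for both genes, and neither gene overlapped normal liver. Mpzl1 was at 1.76, 1.05, 1.79 and 0.727 CPM in the normals and at 9.60, 14.0, 13.9, 6.5 and 9.01 CPM in Grow 2, Grow 3, Grow 4, Regress 1 and Regress 3, a rise of 2.99 ± 0.42 on the log2 scale (edgeR adjusted p = 0.0258). In bulk tissue, a larger share of cells with a transcript and more transcript per cell cannot be told apart.

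The number of genes called rests on single libraries. It was 0 without any one of the normals, without Grow 3 and without Grow 4, 82 without Grow 2, and 276 (220 higher, 56 lower) without Regress 1. With Grow 3 and Grow 4 summed into 1 sample it was 0. With edgeR 1441 features had an unadjusted p under 0.05, in both directions, and DESeq2 on the same counts called 372 features higher and 99 lower, limma-voom 3 and 1. Over the 20 alternatives the log2 fold change of Ccnd1 stayed between 2.45 and 2.89, with adjusted p from 1.78e-11 to 0.133, and it passed the threshold in 11 of them. Dusp6 stayed between 1.76 and 2.15 with adjusted p from 4.22e-09 to 0.199, and Mpzl1 between 2.69 and 3.17 with adjusted p from 5.08e-08 to 0.133. Without a threshold on p, 202 features (1.64%) were higher in every TMZ tumour than in every normal liver and 220 (1.79%) were lower. Without Regress 1 these counts were 574 and 445, without Grow 2 they were 530 and 701, without Normal 2 they were 336 and 584, and without both Grow 3 and Grow 4 they were 322 and 384.

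**Figure D1:**
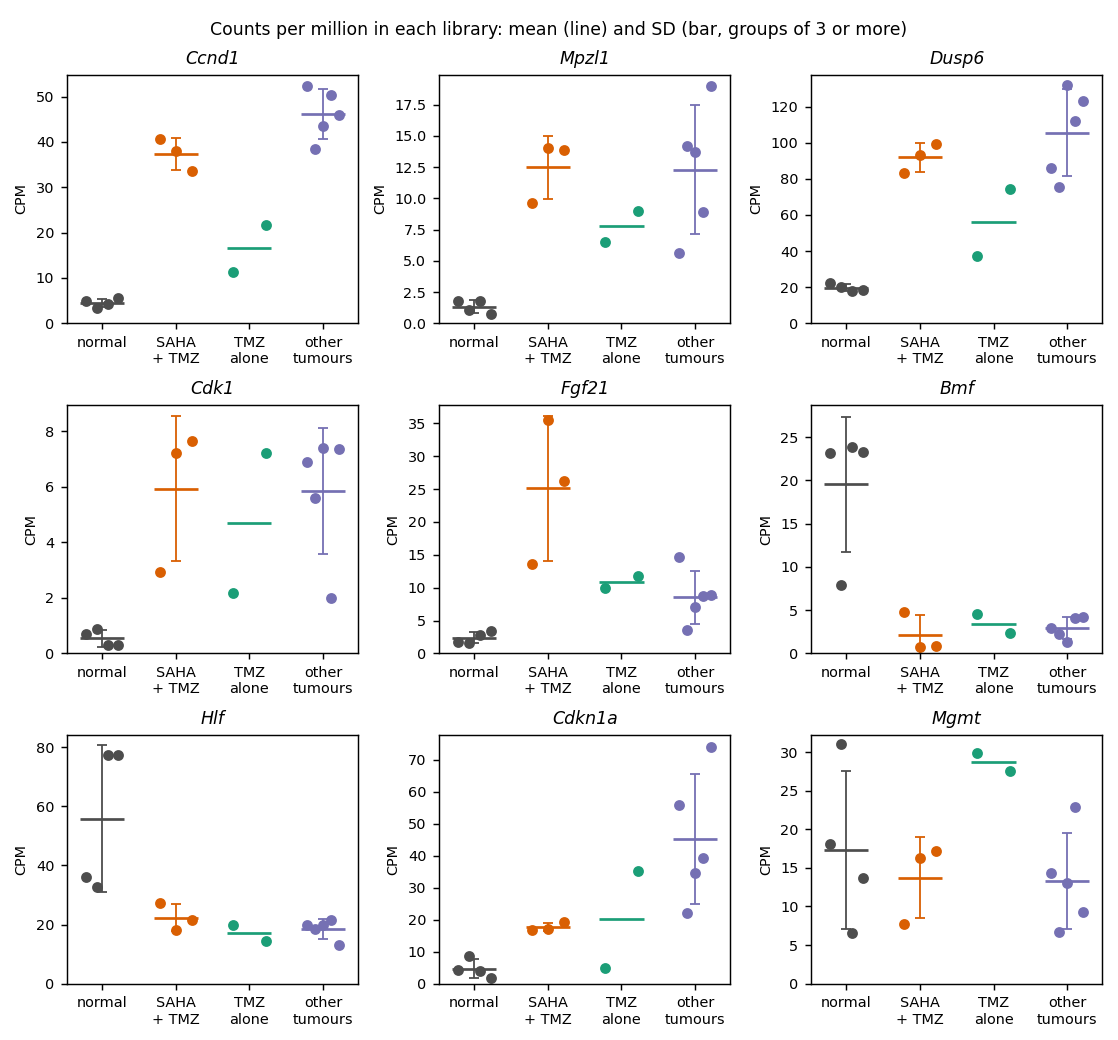
CPM (linear axes) of 9 genes in each library, with a point per library, a line at the mean and a bar for the SD in groups of 3 or more. Ccnd1, Mpzl1 and Dusp6 lie above every normal liver in all 5 TMZ tumours, Bmf and Hlf lie below, and Mgmt overlaps.

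The tumours differed in how far they stood from normal liver. More than 2-fold above the highest or below the lowest normal lay 529 and 297 features in Grow 2, 547 and 404 in Grow 3, 508 and 413 in Grow 4, 159 and 180 in Regress 1, and 743 and 830 in Regress 3. Regress 1 thus had the fewest and Regress 3 the most. As a share of all features tested this was 2.76% in Regress 1 and 12.8% in Regress 3, and each normal liver set against the other 3 gave 1.72% to 10.9%, with Normal 3 the highest. All 5 TMZ tumours shared 16 features that far above normal and 5 that far below, whereas 676 above and 1027 below were found in 1 tumour alone.

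Fewer than 20 genes were called, so the further genes named here are those with the lowest unadjusted p among genes that did not overlap. None of them passed the threshold against normal liver. Among the higher ones, Fgf21, a hormone of the fasting and stress response, was at 1.76, 1.58, 2.84 and 3.35 CPM in the normals and at 13.6, 35.5, 26.2, 10.0 and 11.8 CPM in Grow 2, Grow 3, Grow 4, Regress 1 and Regress 3, a log2 fold change of 3.02 ± 0.49 (edgeR adjusted p = 0.0540). The fatty acid carrier Cd36 was at 13.9, 30.1, 7.47 and 17.3 CPM in the normals and at 97.7, 123, 132, 45.3 and 139 CPM in the tumours in the same order (2.64 ± 0.44, edgeR adjusted p = 0.0540). Regress 1 was the lowest tumour for both. Ly6d, a small membrane protein of the oncofetal list, was at 0.351, 0.876, 0.299 and 0.436 CPM in the normals and at 9.44, 51.1, 44.7, 1.77 and 54.3 CPM in the tumours (6.01 ± 1.04, edgeR adjusted p = 0.0547). Its spread between tumours was wide, with Regress 1 near the normals. Tceal8, Mtmr11 and the ubiquitin ligase Rnf144a had log2 fold changes of 2.69, 2.32 and 2.72 with adjusted p of 0.0540, 0.0540 and 0.0549.

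On the lower side, Bmf, a BH3-only protein that promotes apoptosis, was at 23.2, 7.88, 23.9 and 23.3 CPM in the normals and at 4.80, 0.757, 0.825, 4.53 and 2.32 CPM in Grow 2, Grow 3, Grow 4, Regress 1 and Regress 3, a log2 fold change of -2.90 ± 0.55 (edgeR adjusted p = 0.0549). Normal 2 was the lowest normal and still lay above every tumour. Homer2, a scaffold protein, was at 39.3, 45.2, 43.3 and 48.2 CPM in the normals and at 10.4, 6.06, 5.90, 17.1 and 9.53 CPM in the tumours (-2.17 ± 0.40, edgeR adjusted p = 0.0549). The normals were close together and the tumours well below them. The actin and membrane protein Mtss1 was at 95.8, 131, 207 and 155 CPM in the normals and at 68.7, 48.7, 53.6, 57.9 and 39.1 CPM in the tumours (-1.46 ± 0.26, edgeR adjusted p = 0.0549). Kcnk5, a potassium channel, and Inpp5a, an inositol phosphate phosphatase, had log2 fold changes of -2.04 and -1.42 with adjusted p of 0.0549 and 0.0685. Hlf, a clock output factor taken up below, and Mast3, Cpsf4l, Slc35e3 and the lysosomal membrane protein Scarb2 followed with -1.46, -1.57, -2.29, -1.62 and -1.22 and adjusted p from 0.0704 to 0.0773.

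Genes of mitosis stood above normal liver in most TMZ tumours, although no single one passed the threshold. The list holds the kinases, cyclins and spindle proteins that act in late G2 and M phase. Of 21 members tested none was called, 12 were higher in every tumour than in every normal liver (1.64% of all features were), and the median log2 fold change was 3.38 beside 0.02 over all features. The count of members above every normal was 20 in Grow 2, 21 in Grow 3, 21 in Grow 4, 15 in Regress 1 and 18 in Regress 3, where 22.0% to 27.6% of all features lay there. Cdk1, the kinase that starts mitosis, was at 0.702, 0.876, 0.299 and 0.291 CPM in the normals and at 2.94, 7.20, 7.66, 2.17 and 7.21 CPM in Grow 2, Grow 3, Grow 4, Regress 1 and Regress 3. Its log2 fold change was 3.32 ± 0.56 (edgeR adjusted p = 0.0540, 2.21e-05 to 0.224 over the alternatives). The normals rest on a handful of counts. Members this low in normal liver passed the filter on low counts only through tumours. A rise among the members tested was therefore partly set by the filter. Ccnb2, the cyclin partner of Cdk1, was at 0.527, 0.175, 0 and 0.145 CPM in the normals and at 2.17, 3.28, 3.77, 1.18 and 5.15 CPM in the tumours (3.81 ± 0.81, edgeR adjusted p = 0.0773). Regress 1 was again the lowest tumour and still above the normals. Mki67, the usual proliferation marker, was at 0.702, 0, 1.20 and 0.145 CPM in the normals and at 12.2, 5.93, 5.31, 1.77 and 1.80 CPM in the tumours (3.36 ± 1.09, edgeR adjusted p = 0.210). It was highest in Grow 2 and lowest in the TMZ-alone tumours. Without Regress 1, 13 members were called and 17 did not overlap. Over all features in that setting, 276 of 12249 were called, 220 of them higher, and 574 of 12300 were higher without overlap.

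The promoters of Cdk1 and Ccnb2 are shown because they hold a pair of short elements known from cell cycle promoters, the cell cycle homology region (searched as TTTGAA or TTCGAA) and the CCAAT box. Each window runs from 250 bases before to 50 bases after the annotated start, on the minus strand, at chr10:69352863-69353162 for Cdk1 and chr9:70421505-70421804 for Ccnb2, and is taken from RefSeq on GRCm38.p6, a later build than the mm9 of the submitters' processing notes. Capitals mark TTTGAA and the CCAAT box, which reads ATTGG on the other strand.
Cdk1: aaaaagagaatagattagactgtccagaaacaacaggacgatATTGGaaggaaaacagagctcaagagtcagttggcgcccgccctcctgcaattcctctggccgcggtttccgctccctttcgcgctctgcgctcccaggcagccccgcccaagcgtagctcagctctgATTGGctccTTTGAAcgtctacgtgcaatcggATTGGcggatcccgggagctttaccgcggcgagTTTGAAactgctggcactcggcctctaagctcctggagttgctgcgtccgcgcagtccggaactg
Ccnb2: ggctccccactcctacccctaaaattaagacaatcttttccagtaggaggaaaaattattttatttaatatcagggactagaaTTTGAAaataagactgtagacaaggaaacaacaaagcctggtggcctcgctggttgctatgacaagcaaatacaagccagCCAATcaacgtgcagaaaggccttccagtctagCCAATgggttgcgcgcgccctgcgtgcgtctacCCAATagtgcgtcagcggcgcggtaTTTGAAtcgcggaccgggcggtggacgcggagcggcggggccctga
In Cdk1, TTTGAA begins at -71 and -15 from the start, and in Ccnb2 at -167 and 5. Of the 24 genes of the list, 19 had a promoter in the table, with 20 windows. The cell cycle homology region was in 14 windows (70%) against 19.2% of all 32851 promoter windows, and CCAAT in 16 (80%) against 37.4%, on either strand. CCAAT was about as frequent in the clock promoters described next, in 18 of 25 windows (72%), and the cell cycle homology region was in 1 of those (4%). These matches describe the letters and no binding was measured.

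The circadian clock and its outputs formed the other list with many members apart from normal liver, mostly on the low side. The clock is a loop in which Clock and Arntl (Bmal1) switch on the period and cryptochrome genes, which then block them, and drives output factors such as Dbp, Tef and Hlf. Of 21 members tested none was called, 11 were lower in every TMZ tumour than in every normal, where 1.79% of all features were, and Arntl was higher, where 1.64% were. The median log2 fold change was -1.21. Dbp was at 65.3, 59.6, 108 and 132 CPM in the normals and at 4.03, 18.6, 16.9, 2.96 and 15.5 CPM in Grow 2, Grow 3, Grow 4, Regress 1 and Regress 3 (-2.97 ± 1.06, edgeR adjusted p = 0.261). Per3, a period gene, was at 12.3, 28.0, 32.7 and 25.5 CPM in the normals and at 2.79, 3.79, 3.30, 0.591 and 3.09 CPM in the tumours (-3.16 ± 0.83, edgeR adjusted p = 0.114). For both genes every tumour lay well below every normal, and Regress 1 was the lowest. Hlf was at 36.0, 32.6, 77.4 and 77.4 CPM in the normals and at 27.2, 18.2, 21.5, 19.9 and 14.4 CPM in the tumours (-1.46 ± 0.30, edgeR adjusted p = 0.0704). Arntl went the other way, at 1.23, 0.526, 2.39 and 0.436 CPM in the normals and 23.5, 3.91, 5.42, 15 and 6.44 CPM in the tumours (3.21 ± 0.90, edgeR adjusted p = 0.134). In the tumours without TMZ 10 to 14 of the 21 lay below every normal, beside 19.5% to 30.7% of all features. Those tumours were not alike. On the log2 scale Dbp stood -0.82, -5.21, -3.53, 0.95 and -5.26 from the normal mean in Grow 1, Grow 5, Grow 6, Regress 2 and Regress 4. Arntl stood 3.23, 4.29, 3.68, -0.86 and 4.49 from it in the same order. The labels give no time of day of collection, and its part in these values was not tested.

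Ciart, a repressor within the loop, was at 11.1, 1.93, 7.17 and 11.8 CPM in the normals and at 0, 0.505, 0.354, 0 and 0.258 CPM in the TMZ tumours, so that 2 of the 5 were listed at 0. Its edgeR adjusted p was 0.110. Ciart and Per3 are shown as examples of the sites through which the clock acts, the E-box CACGTG bound by Clock and Arntl and the D-box TTATGTAA bound by Dbp, Tef and Hlf. The windows have the same length and source, at chr3:95882179-95882478 and chr4:151044616-151044915 on the minus strand. Capitals mark CACGTG in Ciart and TTATGTAA in Per3.
Ciart: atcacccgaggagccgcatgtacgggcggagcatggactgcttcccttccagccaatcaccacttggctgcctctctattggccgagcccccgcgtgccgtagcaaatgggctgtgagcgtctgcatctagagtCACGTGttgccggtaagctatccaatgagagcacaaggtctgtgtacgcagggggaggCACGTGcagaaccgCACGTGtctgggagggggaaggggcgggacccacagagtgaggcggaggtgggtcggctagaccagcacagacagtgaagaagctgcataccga
Per3: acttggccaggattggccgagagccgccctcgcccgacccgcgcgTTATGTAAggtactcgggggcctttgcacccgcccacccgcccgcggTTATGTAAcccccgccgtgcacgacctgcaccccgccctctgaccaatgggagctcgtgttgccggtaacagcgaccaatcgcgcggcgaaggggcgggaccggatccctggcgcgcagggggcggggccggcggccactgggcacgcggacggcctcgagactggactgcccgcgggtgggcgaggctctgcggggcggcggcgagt
CACGTG begins at -116, -58 and -44 in Ciart and TTATGTAA at -205 and -158 in Per3. Of the 22 genes of the list, 19 had a promoter, with 25 windows. CACGTG, which reads the same on both strands, was in 6 of them (24%) against 7.15% of all windows. TTATGTAA, searched on both strands, was in 1 (4%) against 0.938%.

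**Figure D2:**
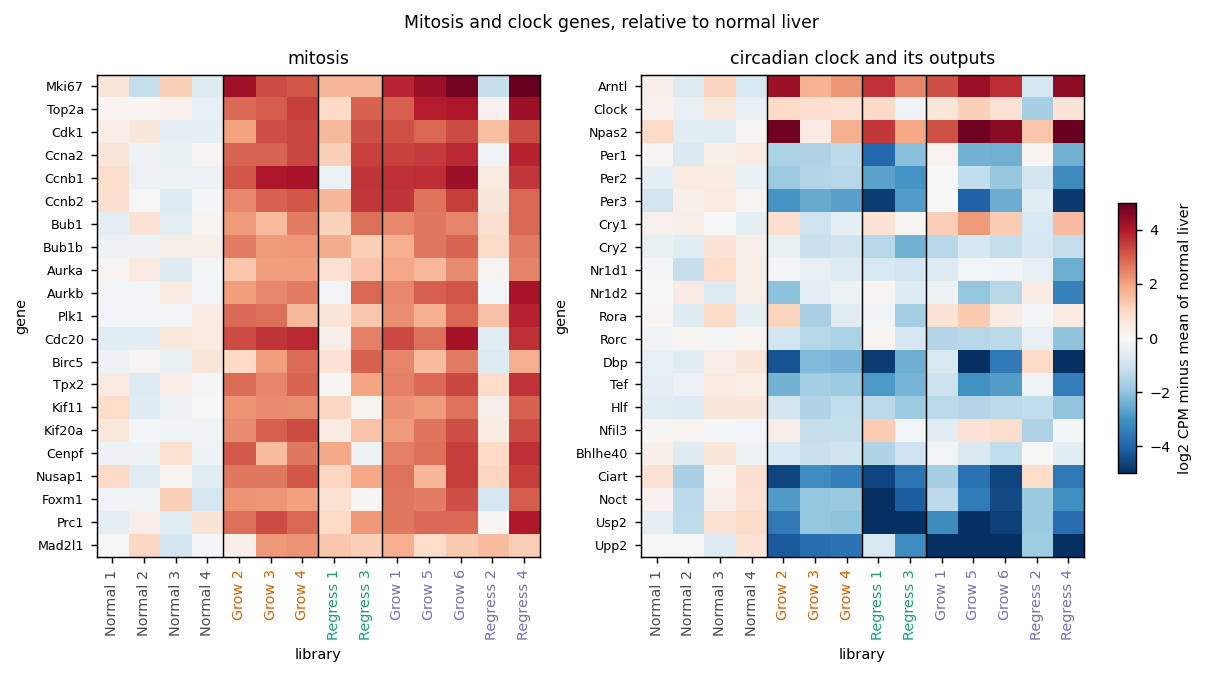
Difference of log2 CPM from the mean of the 4 normal livers (colour) for the tested genes of mitosis (left) and of the circadian clock (right), with a column per library and lines between normal liver, SAHA + TMZ, TMZ alone and other tumours. Mitosis genes are mostly red and clock outputs such as Dbp and Per3 blue in the 5 TMZ tumours.

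Beyond Ccnd1 and Dusp6, no gene of the ERK output list passed the threshold. For this list and those of immediate early genes and G1 regulators, the shares over all features were 0.0244% called and 1.64% higher without overlap. All 13 members tested had a positive log2 fold change, from 0.33 to 5.23, and 4 did not overlap, 2 of them uncalled, Spred1 (0.87, edgeR adjusted p = 0.141) and Epha2 (1.05, edgeR adjusted p = 0.309). The median was 1.05. Levels differed between tumours. Spry4, an ERK-induced inhibitor of the pathway, was at 4.04, 5.78, 3.88 and 2.76 CPM in the normals and at 18.9, 2.15, 2.95, 3.55 and 5.67 CPM in Grow 2, Grow 3, Grow 4, Regress 1 and Regress 3. Only Grow 2 stood above every normal, and without it the log2 fold change of 0.69 was -0.23. Members above every normal numbered 12 of 13 in Grow 2, 6 in Grow 3, 7 in Grow 4, 4 in Regress 1 and 9 in Regress 3, beside 22.0% to 27.6% of all features. Among immediate early genes, switched on within minutes of a growth or stress signal, none of 14 was called and 4 did not overlap (Junb, Egr1, Ier5 and Klf6), with a median of 1.09. Egr1 was at 3.16, 0.350, 1.49 and 5.09 CPM in the normals and at 134, 11, 11.6, 26.0 and 33.0 CPM in the tumours (4.08 ± 0.90, edgeR adjusted p = 0.0808). Grow 2 was far above the other tumours. In the list of G1 regulators Ccnd1 was the 1 member called of 21, with a median of 0.75. Cdkn2c, an inhibitor of the cyclin D kinases, was at 0.527, 1.05, 1.05 and 2.33 CPM in the normals and at 5.73, 10.5, 11.6, 3.15 and 14.4 CPM in the tumours (2.83 ± 0.51, edgeR adjusted p = 0.0549). The inhibitors Cdkn2a and Cdkn2b of the same family also did not overlap.

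None of the genes that act on TMZ damage passed the test against normal liver. Few features of any kind were called or without overlap (0.0244% called, 1.64% higher and 1.79% lower), so lists this short could hold none. Mgmt was at 18.1, 31.0, 6.57 and 13.7 CPM in the normals and at 7.74, 16.3, 17.2, 29.9 and 27.6 CPM in Grow 2, Grow 3, Grow 4, Regress 1 and Regress 3, a log2 fold change of 0.18 ± 0.47 (edgeR adjusted p = 0.919). The groups overlapped, and the TMZ-alone tumours were the highest of the 5. Of 18 genes for the repair of alkylated bases and mismatches, none was called and none lay apart from normal liver, with a median of 0.02 and a range from -0.48 to 0.74. Mpg, which removes methylated purines, had 0.61 ± 0.37, and the mismatch repair gene Msh6 had -0.01 ± 0.46, with edgeR adjusted p of 0.603 and 0.993. The 17 genes of double-strand break repair had a median of -0.24, with none called and none without overlap. The 10 histone deacetylases tested had a median of 0.08, with none called and none without overlap.

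Of 26 p53 targets none was called and none was without overlap, and the median was 0.17. Over all features 0.0244% were called, and 1.64% were higher and 1.79% lower without overlap. Cdkn1a was at 4.21, 8.76, 3.88 and 1.89 CPM in the normals and at 16.9, 17.0, 19.3, 4.93 and 35.3 CPM in Grow 2, Grow 3, Grow 4, Regress 1 and Regress 3 (1.99 ± 0.54, edgeR adjusted p = 0.127). Regress 1 was the 1 TMZ tumour inside the normal range. The tumours without TMZ had 22.0 to 74.1 CPM of Cdkn1a, and against them the median of the p53 targets was -0.61. Btg2, an antiproliferative gene that growth signals induce too, was at 13.9, 8.23, 4.63 and 8.87 CPM in the normals and at 73.2, 23.7, 22.6, 12.6 and 54.6 CPM in the tumours (2.07 ± 0.50, edgeR adjusted p = 0.0953). Here too Regress 1 alone overlapped. Mdm2, which degrades p53, had a log2 fold change of 0.07 ± 0.31, and Ccng1 one of 0.06 ± 0.47, with edgeR adjusted p of 0.952 and 0.974. Ccng1 was at 64.6, 144, 37.7 and 70.7 CPM in the normals and 32.8, 78.1, 82.9, 150 and 70.0 CPM in the tumours, and the groups overlapped. The last injection's distance from tissue collection is not given in the sources used here.

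**Figure D3:**
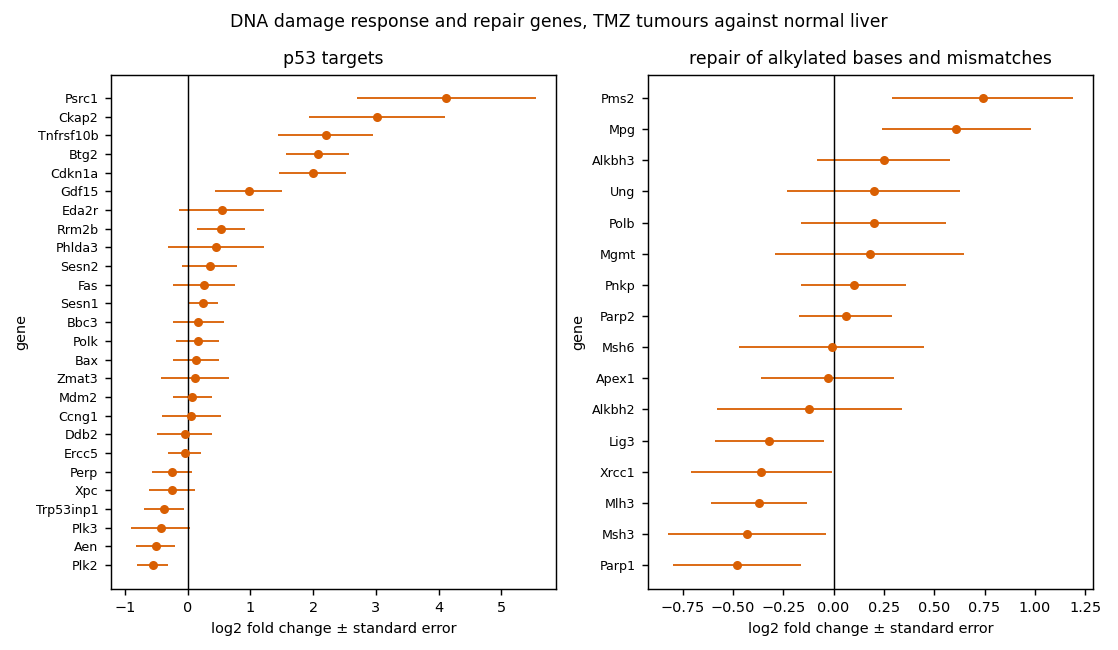
Log2 fold change of TMZ tumours against normal liver (point) with its standard error (line) for 26 p53 targets (left) and 16 of the 18 genes that repair alkylated bases and mismatches (right). None passed the threshold, Cdkn1a stands at 1.99 and Mgmt at 0.18.

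Oncofetal genes, silent in adult liver and often switched on in liver tumours, were high in some TMZ tumours. Of 16 tested none was called, 2 did not overlap (Ly6d and Tff3), and the median was 3.11. Of all features 1.64% were higher without overlap. Members hardly present in normal liver passed the filter on low counts only through tumours, so a rise among them was partly set by the filter. Members above every normal numbered 11 in Grow 2, 10 in Grow 3, 10 in Grow 4, 4 in Regress 1 and all 16 in Regress 3. Of all features 22.0% to 27.6% lay there in these tumours, with 26.6% in Regress 1. Afp, alpha-fetoprotein, was at 1.40, 0.876, 0.299 and 4.51 CPM in the normals and at 23.2, 72.6, 74.6, 0.591 and 62.8 CPM in Grow 2, Grow 3, Grow 4, Regress 1 and Regress 3 (4.69 ± 1.06, edgeR adjusted p = 0.0834). Gpc3, a surface proteoglycan used as a marker of hepatocellular carcinoma, was at 1.93, 0.876, 1.64 and 1.02 CPM in the normals and at 52.9, 10.7, 11.1, 0.197 and 48.4 CPM in the tumours (4.15 ± 1.06, edgeR adjusted p = 0.108). For both genes 4 tumours lay above every normal and Regress 1 did not. Tff3, a secreted trefoil peptide, was at 6.67, 0.350, 1.49 and 11.8 CPM in the normals and at 145, 102, 94.0, 30.3 and 1300 CPM in the tumours (6.03 ± 1.34, edgeR adjusted p = 0.0808). It was by far the highest in Regress 3.

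Zonation split the TMZ tumours. In normal liver, hepatocytes around the central vein express glutamine synthetase (Glul), Axin2 and Lgr5 under Wnt and beta-catenin signalling, and those around the portal tract express the urea cycle. Of the 18 pericentral and Wnt genes tested, all 18 lay above every normal in Grow 3 and in Grow 4 and none did in the other 3 TMZ tumours, where 9 (Grow 2), 7 (Regress 1) and 12 (Regress 3) lay below every normal. Of all features, 24.6%, 28.7% and 32.4% lay below every normal in those 3 tumours, and 22.0% and 22.3% lay above in Grow 3 and Grow 4. Glul was at 292, 225, 375 and 583 CPM in the normals and at 159, 9960, 9770, 238 and 147 CPM in Grow 2, Grow 3, Grow 4, Regress 1 and Regress 3. Its log2 fold change over the 5 tumours, 3.46 ± 1.62 (edgeR adjusted p = 0.428), joins values on both sides of normal, and without Grow 3 and Grow 4 it was -0.97. Axin2, a direct Wnt target, was at 5.27, 1.40, 4.93 and 4.66 CPM in the normals and at 2.63, 61.4, 57.1, 2.96 and 0.772 CPM in the tumours (2.62 ± 1.38, edgeR adjusted p = 0.509), and its log2 fold change was -0.87 without Grow 3 and Grow 4. Grow 3 and Grow 4 were high and the other tumours were inside or below the normal range. None of the 18 was called, and the list median of 1.52, which was -0.84 without Grow 3 and Grow 4, describes none of the tumours well, since by tumour it was -0.69, 2.70, 2.74, -0.66 and -1.20 in the same order. In the TMZ-alone against the SAHA + TMZ tumours the median was -2.97 with none called. Among the tumours without TMZ, Regress 4 (DMSO) had 11 of the 18 above every normal and 4 below, with Glul at 1520 CPM. In Grow 1, Grow 5, Grow 6 and Regress 2, 15, 15, 14 and 16 lay below every normal and none above. Of all features, 29.8% lay above in Regress 4, and 22%, 19.5%, 19.9% and 30.7% lay below in those 4 tumours.

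The periportal list was the mirror of the pericentral list in Grow 3 and Grow 4. There 16 of 19 members lay below every normal and none above, beside 21.6% and 21.8% of all features below. In Regress 4, without TMZ, 15 lay below and 2 above. In the remaining tumours without TMZ 5 to 10 lay below. Of all features 19.5% to 30.7% lay below in the tumours without TMZ. Cps1, the first enzyme of the urea cycle, was at 1860, 1520, 3940 and 2170 CPM in the normals and at 1780, 55.8, 50.3, 1080 and 922 CPM in Grow 2, Grow 3, Grow 4, Regress 1 and Regress 3. Cyp2f2 was at 369, 54.7, 698 and 912 CPM in the normals and at 365, 2.52, 4.83, 311 and 87.6 CPM in the tumours. Both were lowest in Grow 3 and Grow 4, and for Cyp2f2 the other tumours lay within the normal range. Over the 5 tumours the list median was -0.51, or 0.02 without Grow 3 and Grow 4. Asl and Uox (-1.29 and -1.24, edgeR adjusted p of 0.143 and 0.297) were the 2 members of 19 below every normal in all 5 tumours, where 1.79% of all features were. Cdh1 (E-cadherin), chosen after its values were seen, was at 3.69, 0.701, 6.13 and 3.78 CPM in the normals and at 208, 4.17, 4.83, 2.17 and 85.0 CPM in the tumours. Grow 2 and Regress 3 were high, as were the other 5 tumours at 93.1 to 254 CPM, and Grow 3, Grow 4 and Regress 1 lay inside the normal range.

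**Figure D4:**
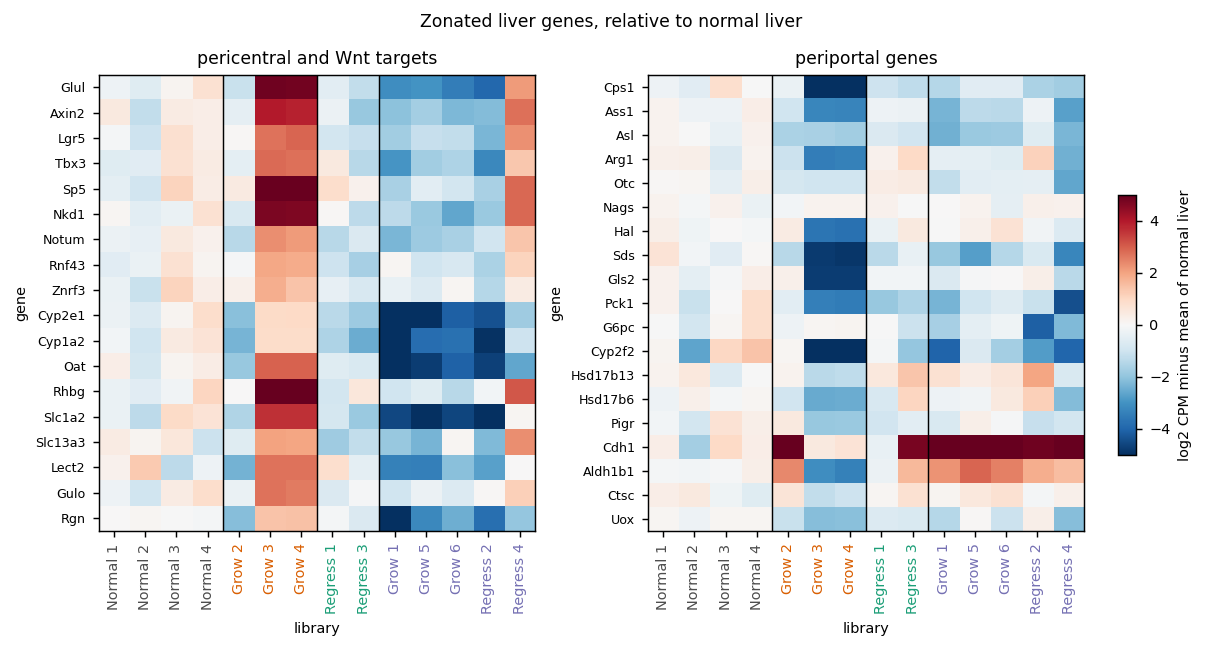
Difference of log2 CPM from the mean of the 4 normal livers (colour) for the tested pericentral and Wnt genes (left) and periportal genes (right) in each library. All 18 pericentral genes are above normal in Grow 3 and Grow 4, where Glul reached 9960 and 9770 CPM, and most periportal genes are below.

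No member of the metabolic lists was called against normal liver. Some of these lists held members apart from normal liver, where 1.64% of all features were higher and 1.79% lower. None of 22 genes of bile acid synthesis and transport, 23 of glycolysis and gluconeogenesis or 25 of drug efflux and glutathione was without overlap. In cholesterol synthesis 3 of 23 were higher without overlap (Hmgcs1, Mvd and Lss) and none was called, with a median of 0.68. Hmgcs1, an early enzyme of the pathway, was at 33.9, 24.0, 50.2 and 128 CPM in the normals and at 224, 266, 289, 171 and 159 CPM in Grow 2, Grow 3, Grow 4, Regress 1 and Regress 3 (1.91 ± 0.49, edgeR adjusted p = 0.110). Normal 4 was the highest normal and lay just under the tumours. Among fatty acid oxidation and PPAR alpha targets 3 of 22 did not overlap, Fgf21, Plin2 and Pdk4, with a list median of 0.09. Pdk4, the kinase that closes pyruvate dehydrogenase, was at 1.58, 2.98, 1.34 and 2.04 CPM in the normals and at 13.8, 27.6, 26.5, 10.4 and 7.98 CPM in the tumours (3.12 ± 0.63, edgeR adjusted p = 0.0704). Psat1, a serine synthesis enzyme of the amino acid stress list, was at 0.702, 0.701, 0.299 and 0.436 CPM in the normals and at 4.33, 18.9, 19.6, 1.97 and 5.67 CPM in the tumours (4.23 ± 0.80, edgeR adjusted p = 0.0549). Its highest values were in Grow 3 and Grow 4. Among 30 cytochrome P450 genes 4 were lower without overlap (Cyp2c37, Cyp3a25, Cyp4f14 and Cyp26a1), and among 27 genes of hepatocyte identity 3 were (Tat, Nr1i2 and Hpd), with medians of -0.30 and -0.29 and none called. Reads of the P450 genes can be split between near-identical copies.

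The SAHA + TMZ tumours taken alone, which share the normals with the comparison above, gave 153 calls against normal liver, 126 higher and 27 lower (1.16% of 13147 features). This count rests on single libraries too. It was 568 without Grow 2 (342 higher, 226 lower), 4 to 20 without any one of the normals, Grow 3 or Grow 4, 10 with Grow 3 and Grow 4 summed and 8 without both. DESeq2 called 423 higher and 209 lower, and limma-voom 5. Ccnd1 rose by 3.05 ± 0.27 on the log2 scale, Dusp6 by 2.22 and Mpzl1 by 3.22 (edgeR adjusted p of 0.000255, 0.00657 and 0.0108). Fgf21 rose by 3.38, and the mitosis genes Cdk1, Kif20a, Bub1b, Top2a, Plk1 and Prc1 rose as well (edgeR adjusted p from 0.0266 to 0.0498), 6 of 22 of that list. The immediate early genes Jun, Jund and Egr1 rose by 1.86, 1.15 and 4.35. Homer2 and Inpp5a fell by 2.57 and 1.80, and Bmf fell by 3.23 (edgeR adjusted p of 0.0266, 0.0189 and 0.0433).

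Among the largest rises with SAHA + TMZ were enzymes and a transporter. Cyp2b13, a P450 with near-identical copies, was at 0, 0.350, 0 and 0.291 CPM in the normals and at 25.1, 18.1 and 17.7 CPM in Grow 2, Grow 3 and Grow 4, a rise of 6.83 ± 0.97 on the log2 scale (edgeR adjusted p = 0.0118). With TMZ alone it was at 0 CPM in Regress 1 and 3.61 CPM in Regress 3, and the tumours without TMZ had 18.1 to 82.3 CPM. Akr1c18, a progesterone-degrading reductase with close paralogs, was at 1.40, 0, 0.299 and 0.873 CPM in the normals and at 85.0, 61.5 and 60.7 CPM with SAHA + TMZ (6.71 ± 1.37, edgeR adjusted p = 0.0416), and at 0 and 269 CPM in Regress 1 and Regress 3. The pair of TMZ-alone tumours stood at opposite ends, and the tumours without TMZ had 153 to 309 CPM. Hao2, a peroxisomal hydroxyacid oxidase, was at 0.175, 0.526, 0 and 0.145 CPM in the normals and at 0.929, 57.4 and 51.5 CPM with SAHA + TMZ (7.37 ± 1.34, edgeR adjusted p = 0.0277). Its level was high in Grow 3 and Grow 4 only, and 0.733 to 8.61 CPM in the tumours without TMZ. Slc22a29, an organic anion transporter, rose by 5.39 and was also highest in Grow 3 and Grow 4, at 1.55, 27.0 and 28.5 CPM with SAHA + TMZ. Unlike Hao2, it lay above every normal (0.175 to 0.896 CPM) in all tumours. Regress 1 and Regress 3 had 4.73 and 2.58 CPM, and the tumours without TMZ had 1.48 to 11.1 CPM.

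Of the genes that fell, Plekhb1 was at 52.8, 54.7, 54.8 and 31.6 CPM in the normals and at 2.79, 3.91 and 4.24 CPM with SAHA + TMZ (-3.72 ± 0.69, edgeR adjusted p = 0.0290), with 63.0 CPM in Regress 1 and 3.61 CPM in Regress 3. Serpina4-ps1, a pseudogene whose reads may belong to its relatives, was at 50, 94.1, 25.3 and 37.4 CPM in the normals and at 2.63, 1.39 and 0.825 CPM (-5.01, edgeR adjusted p = 0.0311), with 27.8 and 0.772 CPM in Regress 1 and Regress 3. For both genes Regress 3 was with the SAHA + TMZ tumours and Regress 1 was not. Both were low in the tumours without TMZ as well, at 1.48 to 3.5 CPM for Plekhb1 and 0 to 0.228 CPM for Serpina4-ps1. Adamdec1, a metalloprotease, was at 6.85, 4.38, 4.18 and 4.36 CPM in the normals and at 0.619, 0.126 and 0.825 CPM with SAHA + TMZ (-3.20, edgeR adjusted p = 0.0491). It was at 4.53 CPM in Regress 1 and, above every normal, at 16.2 CPM in Regress 3. The tumours without TMZ had 0.141 to 1.19 CPM. The potassium channel Kcnt2 fell by 2.70 with SAHA + TMZ (edgeR adjusted p = 0.0491), with 4.53 and 4.12 CPM in Regress 1 and Regress 3.

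For the 2 TMZ-alone tumours no feature passed against normal liver, 0% of 13147, with edgeR. The lowest adjusted p was 0.107, 2017 features had an unadjusted p under 0.05, DESeq2 called 259 and limma-voom 2. Without Regress 1, 279 features were called (241 higher, 38 lower), with Regress 3 as the lone sample of its arm, assumed to vary like the other groups. The list medians were 2.55 for mitosis, -1.63 for the clock and 0.26 for the p53 targets, beside 3.68, -1.32 and 0.11 with SAHA + TMZ. Set against each other, the arms differed in no feature by edgeR, again 0% of 13147. The lowest adjusted p was 0.145, 2205 features had an unadjusted p under 0.05, DESeq2 called 181 and limma-voom 2. Without Grow 2 the count was 114. The arms also differ in TMZ dose, and this test does not show that they are alike.

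Set against the 5 tumours without TMZ, the TMZ tumours had 30 features higher and 8 lower, 0.309% of 12300. DESeq2 called 319 higher and 172 lower, and limma-voom 28 and 38. The count was 0 without Grow 3, Grow 4, Grow 5, Grow 6, Regress 1 or Regress 4 in turn, 1 without Grow 1, 5 without Regress 2, 155 without Regress 3 (95 higher, 60 lower), 843 without Grow 2 (352 higher, 491 lower), and 0 with Grow 3 and Grow 4 summed or both left out. The 30 higher features, 27 of them with a gene symbol, included P450s, bile acid genes and transporters. A pair of those without a symbol had the same log2 values in every library, so these counts may hold 1 signal more than once. All 30 lay below every normal liver in each of the other 5 tumours. In the TMZ tumours they were mostly at or above the normal level in Grow 3 (15 inside the normal range, 10 above, 5 below), Grow 4 (11, 12 and 7) and Regress 1 (15, 10 and 5), and mostly below it in Grow 2 (27 below) and Regress 3 (23 below).

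Cyp2c54, an arachidonic acid and drug oxidase with close paralogs, was at 193, 144, 218 and 415 CPM in the normals and at 48.8, 227, 235, 147 and 56.9 CPM in Grow 2, Grow 3, Grow 4, Regress 1 and Regress 3. The other tumours had 0.146, 0.913, 4.80, 3.95 and 5.78 CPM (Grow 1, Grow 5, Grow 6, Regress 2 and Regress 4). The TMZ tumours were higher by 5.56 ± 0.81 on the log2 scale (edgeR adjusted p = 0.0472), and the groups did not overlap. Its neighbour in the family, Cyp2c50, was higher by 4.36 ± 0.79. The acetyltransferase Nat8 was at 3.41, 59.8, 56.4, 25.0 and 3.61 CPM in the TMZ tumours and at 0.0733, 0.343, 0.553, 0.198 and 1.69 CPM in the others (5.73 ± 0.95, edgeR adjusted p = 0.0499). Oat, an ornithine aminotransferase of pericentral hepatocytes, was at 84.5, 2420, 2450, 209 and 185 CPM in the TMZ tumours and at 8.28, 11.5, 19, 12.1 and 52.5 CPM in the others (5.69 ± 1.01, edgeR adjusted p = 0.0499). Grow 3 and Grow 4 were the highest for all of these. Slc25a21, a mitochondrial carrier of oxodicarboxylates, was higher by 4.20 ± 0.79. In the bile acid list 3 of 22 were called, the synthesis enzymes Cyp27a1 (2.06) and Cyp7b1 (4.03) and the uptake carrier Slco1b2 (3.39), each with an edgeR adjusted p of 0.0499, and the list median was 0.80 beside -0.02 over all features. Cyp7b1 was at 332, 98.6, 377 and 623 CPM in the normals, at 47.1, 263, 270, 138 and 34.8 CPM in the TMZ tumours and at 1.10, 12.8, 10.5, 10.5 and 11.4 CPM in the others.

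Of the 8 features lower than in the other tumours, 5 are named here. Kif5c, a motor protein of neurons, was at 1.05, 0, 0.149 and 0.436 CPM in the normals, at 5.57, 1.01, 0.943, 0.197 and 4.64 CPM in the TMZ tumours and at 74.2, 9.59, 33.9, 15.4 and 78.2 CPM in the others (-4.13 ± 0.81, edgeR adjusted p = 0.0499). Rasal1, which turns Ras off, was at 1.24, 0.253, 0.354, 0 and 1.55 CPM in the TMZ tumours and at 12.1, 2.51, 10.1, 6.52 and 10.9 CPM in the others. Neither overlapped, and within the TMZ tumours Grow 2 and Regress 3 were the highest for both. Rasal1 and Ocstamp were lower by -3.69 and -2.72 on the log2 scale, and Fam3c and Agfg1 by -1.53 and -1.23 (edgeR adjusted p = 0.0499 each).

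**Figure D5:**
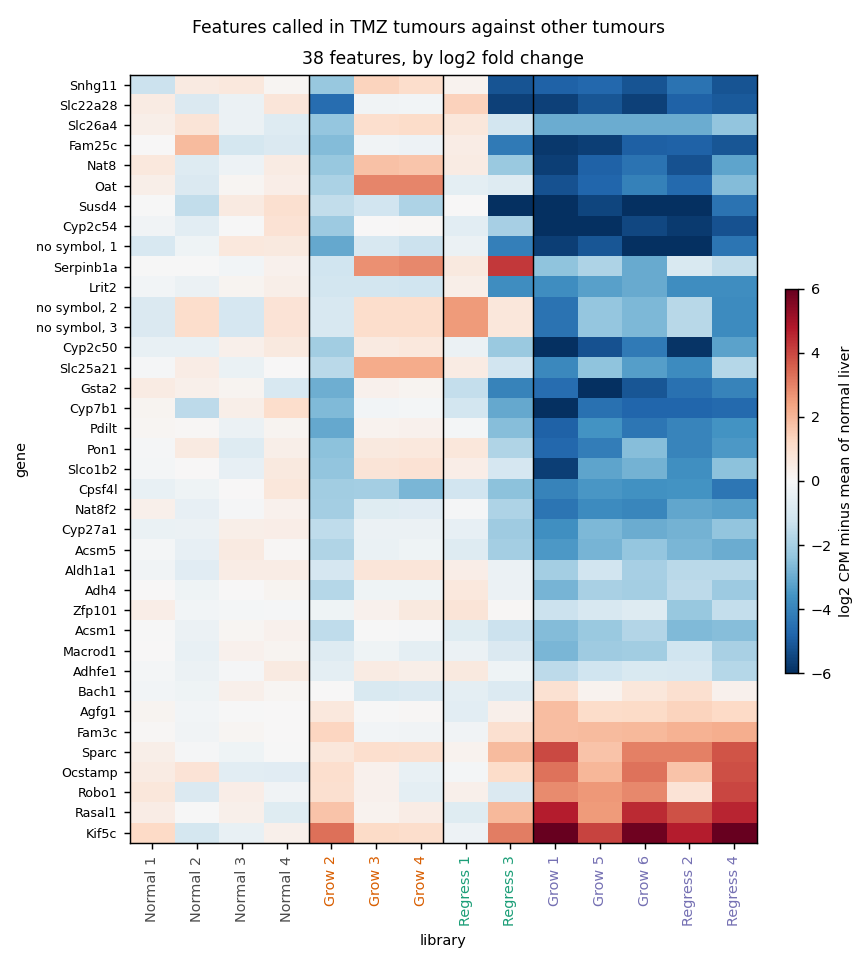
Difference of log2 CPM from the mean of the 4 normal livers (colour) for the 38 features called in TMZ tumours against other tumours, sorted by that fold change, with a column per library. The 30 upper features are below normal in all 5 other tumours, and in Grow 2 and Regress 3 to a lesser degree, while Grow 3, Grow 4 and Regress 1 are near normal.

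Markers of other cell types differed between tumours. The summed level of 12 Kupffer cell markers was 397 to 1140 CPM in the normals and 404 to 968 CPM in the TMZ tumours, and that of the stellate cell and matrix list 251 to 395 CPM and 156 to 391 CPM. Both ranges overlapped. Markers of recruited monocytes and macrophages summed to 64.1 to 377 CPM and 96.8 to 1020 CPM, and those of cholangiocytes to 25.0 to 40.6 CPM and 37.0 to 362 CPM. Among the TMZ tumours Regress 3 was the highest for both, with Krt19 and Epcam, defining cholangiocyte genes, at 34.8 and 56.4 CPM against at most 1.05 and 1.23 CPM in the normals. In the tumours without TMZ the monocyte and macrophage list summed to 164 to 635 CPM and the cholangiocyte list to 315 to 640 CPM. The adipocyte list summed to 4.73 to 6.85 CPM and 8.47 to 93.0 CPM, with its defining gene Adipoq at 0 to 7.21 CPM in the tumours and Lep at 0 in every library. The pancreatic acinar list summed to 7.17 to 43.6 CPM in the normals and to 23.8, 251, 237, 61.7 and 330 CPM in Grow 2, Grow 3, Grow 4, Regress 1 and Regress 3, nearly all of it the elastase Cela1, while the defining genes Prss1, Cpa1, Pnlip, Ctrb1 and Try4 were at 0 in every library. Markers of B and plasma cells summed to 6.28 to 27.7 CPM and 12.1 to 47.9 CPM, with a median log2 fold change of 1.27 over 5 tested and none called. The part of these cells in the results was not tested. The hepatocyte gene Alb took 2.98% to 4.95% of the counts in the normals, 16.2% in Grow 2, 9.66% in Regress 3 and 3.16% to 4.18% in the other TMZ tumours. In the tumours without TMZ it took 9.25% to 17.64%.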

How the data were processed

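The deposited table holds estimated counts (expected counts, not whole) for 35230 transcript rows in 14 libraries, per the file headers; 1 empty column was not used. Salmon 0.3.1, edgeR 3.14.0 and build mm9 are listed in the submitters' processing notes, with no order. RNA from snap-frozen tissue was made into TruSeq v2 libraries, which do not mark strand, so reads of overlapping genes cannot be told apart. Rows were named through RefSeq on GRCm38.p6 (26077) or GENCODE M21 (148), 9005 stayed unnamed (3.52% to 12.1% of counts), and counts were summed per symbol and rounded, giving 30436 features. Totals ran from 4706838 to 13394150 counts per library.

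Tests used edgeR 4.0.16 (R 4.3.3) with filterByExpr, TMM and quasi-likelihood fits over all 14 libraries, in 3 groups (12300 features) or with the TMZ arms separate (13147). Genes hardly present in normal liver passed filterByExpr only through tumours. Calls were made at 0.05 on p-values adjusted by Benjamini-Hochberg. Standard errors are the log2 fold change over the square root of F. Log2 CPM used a prior count of 2. Scripts were tested on simulated counts. DESeq2 1.42.0, limma 3.58.1, other scalings and filters, a transcript length offset and leaving out libraries were alternatives.

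The tumours and the 42 gene lists (686 genes, 590 tested) were chosen with earlier results of these data known, so list counts are descriptions. Genes named were the 10 each way with the largest change among called, non-overlapping genes whose average log2 CPM reached 1 (the lowest p where fewer than 20 were called, 5 each way in other comparisons), a set list of damage, cycle and tumour genes, and list members without overlap. Other names, among them the list examples, were chosen after their values were seen. Some genes of the lists and of the set list are not reported here.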

Additional observations from a re-analysis of the deposited data

Results flagged for a closer look

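In groups of 4 to 10 samples, a sample was singled out where its gap to the nearest other, divided by the group's range, passed Dixon's limit (0.829 for 4 samples, 0.710 for 5). Of 110 groups of values looked at, 10 passed, and chance gives about 1 in 20. Among the TMZ tumours Regress 1 was the lowest for Mtmr11 (gap 0.756 of the range), Akr1c18 (0.783) and Afp (0.739) and the highest for Plekhb1 (0.872), and Regress 3 was the lowest for Slc35e3 (0.734). Among normal livers Normal 3 was the lowest for Tceal8 (0.932), Normal 1 the lowest for Rnf144a (0.950) and the highest for Adamdec1 (0.908), Normal 2 the lowest for Bmf (0.972) and Normal 4 the lowest for Plekhb1 (0.933).

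The tumour effect differed between tumours with and without TMZ for several genes named in the report, by edgeR's test of the difference itself. Cyp27a1, Cyp7b1, Slco1b2 and Cpsf4l were among them. Listed here are the 5 each way that the naming rule picked. The log2 differences were 5.73 for Nat8, 5.69 for Oat, 5.56 for Cyp2c54, 4.36 for Cyp2c50, 4.20 for Slc25a21, -4.13 for Kif5c, -3.69 for Rasal1, -2.72 for Ocstamp, -1.53 for Fam3c and -1.23 for Agfg1.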

How the results depend on the processing

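No paired analysis was possible because the replicate numbers in the titles only count samples and pair no animals. In the order TMZ against normal, SAHA + TMZ against normal and TMZ against other tumours (3, 153 and 38 calls), DESeq2 gave 471, 632 and 491, no filter on low counts 24, 142 and 23, a transcript length offset 90, 252 and 121, fitting only the groups compared 0, 100 and 0, Grow 3 and Grow 4 summed 0, 10 and 0, and both left out 0, 8 and 0. Limma-voom gave 4, 5 and 66. RLE scaling gave 8 for TMZ against normal and symbols only 23. Regress 1 left out with Grow 3 and Grow 4 summed gave 153 (136 higher, 17 lower). TMZ alone against normal gave 259 with DESeq2, 2 with limma-voom and 3 with the length offset, and the arms against each other 181, 2 and 1. Leaving out each library in turn gave 0 to 276, 4 to 568, 0 to 279 (TMZ alone), 0 to 114 (arms) and 0 to 843 (other tumours).

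Of the log2 fold changes of named genes against normal, 23 turned sign, in 7 genes close to 0 or split between tumours. Msh6 (-0.01) was 0 with DESeq2 and RLE, 0.03 with limma-voom, 0.04 with symbols only and with only the groups compared, 0.08 with the length offset and with Regress 1 out and Grow 3 and Grow 4 summed, and -0.20 to 0.27 leaving out single libraries (positive without Normal 3, Grow 3, Regress 1 or Regress 3). Leaving out single libraries gave -0.27 to 0.52 for Ccng1 (0.06), -0.09 to 0.62 for Mgmt (0.18) and -0.04 to 0.19 for Mdm2 (0.07), with the lowest values without Regress 1 for Ccng1 and Normal 3 for the others. Regress 1 out with the sum gave -0.37 for Ccng1 and 0 for Mgmt. Without Grow 3 and Grow 4, Mdm2 was -0.01, Glul (3.46) was -0.97 and Axin2 (2.62) was -0.87. Spry4 (0.69) ran from -0.23, without Grow 2, to 0.92 leaving out single libraries. The cause was not tested. The other genes run, those named by the rule and those whose fold change against normal, with SAHA + TMZ or against other tumours is printed, kept their direction. Against normal 850 values kept their side of the threshold, 157 gained it and 29 lost it, and with SAHA + TMZ and against other tumours 203 and 149 lost it while 193 and 98 kept it. Leaving out both Grow 3 and Grow 4, and joining their sum with the loss of Regress 1, were chosen after seeing the data. Low depth limits mitosis genes, which lie under 1 CPM in most normals.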
